A study of Mus musculus with 6 samples.

Results

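The 10 genes Tbx18, Prrx1, Twist1, Snai1, Snai2, Zeb1, Zeb2, Tagln, Acta2 and Pdgfrb, known from mesenchymal cells and from the mural cells of blood vessels, were followed in neural stem cells of young and old mice. They were found by symbol in the platform annotation, and every probe set with 1 of these symbols and no other was taken, 27 of the 45101 on the array. The genes were chosen by their measured levels: Tbx18 and Prrx1 were selected on large opposite differences between young and old on these same arrays, and the others were listed with that comparison in view. Differences between the ages are therefore given for all 10 genes as a description, with no p-value.

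Messenger RNA was measured on 6 arrays, 1 per sample. The samples were neural stem cells of C57BL/6JRj mice, of which 3 came from mice aged 6 weeks, called young here, and 3 from mice aged 9 months, called old. No agent, allele or transgene is named for either age, and the labels do not give the brain region, how the cells were isolated or whether replicates came from separate animals or cultures. Spread and p-values thus measure only the differences between these samples, which may be technical, and the number of arrays limits the precision. Levels are log2 values made by GCRMA, which sets dim probe sets to a lowest value near 2.14. A probe set was kept for testing where it was above log2 4 on at least 3 arrays.

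Mesenchymal cells are loose, migratory cells of connective tissue, and mural cells are the pericytes and smooth muscle cells that wrap blood vessels. Tbx18 is a T-box factor of mural cells and Prrx1 a paired-type homeobox factor of limb and facial mesenchyme. Twist1, Snai1, Snai2, Zeb1 and Zeb2 bind E-boxes, repress epithelial junction genes and drive the epithelial to mesenchymal transition, and Zeb1 and Zeb2 also act in neural progenitors. Acta2 and Tagln encode the smooth muscle actin and transgelin, which the factor Srf and its myocardin-related partners switch on through CArG boxes. Pdgfrb is the receptor by which pericytes answer the growth factor PDGF-B.

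The name mural was not borne out by most mural markers. Of the mural genes among the 10, Pdgfrb and Tagln read 2.14 on all 6 arrays at every probe set. Tbx18 and Acta2 were above log2 4 at their brightest probe sets. Their means there were 4.70 in young and 10.78 in old cells for Tbx18, and 6.73 and 5.39 for Acta2. Of 17 further mural markers, 14 stayed under log2 4 on all 6 arrays, among them the pericyte genes Rgs5, Abcc9 and Kcnj8 and the smooth muscle genes Myh11, Cnn1 and Des. The other 3 were Notch3, Mcam and Cspg4, of which Notch3 and Cspg4 are also known from neural stem cells and oligodendrocyte progenitors. Of 12 markers of neural stem cells and radial glia, 11 were kept, of which 1 rose and 4 fell in old cells. Of all 10050 kept genes, 22% were called higher and 18.5% lower, so nothing is read from this count. The Notch target gene Hes5 read 7.91, 7.91 and 7.52 in young and 2.73, 2.42 and 2.14 in old cells, at least 13.7-fold lower against log2 4, and was kept through the young arrays alone. Sox1 (-0.73), Nes (-0.46) and Sox9 (-0.35) also fell and Msi1 (0.52) rose, by limma with adjusted p from 0.000402 to 0.00746. The summed level of the 12, the log2 of the sum of their linear values, was 16.75 to 16.78 in young and 16.65 to 16.67 in old cells, and its part in the values of the 10 genes was not tested. The 10 genes are therefore described by name, not as the signature of a cell type.

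Promoter sequence is shown for Tbx18, Prrx1 and Acta2, because these 3 genes had the largest differences between the ages. Each run holds the 250 bases before a RefSeq transcript start (GRCm38.p6), read 5′ to 3′ on the gene's strand, and for Prrx1 and Acta2 the RefSeq gene reaches further upstream. Capitals mark 5 kinds of motif, searched on both strands. They are the CArG box with at most 1 base other than A or T among its 6 middle bases, the E-box CANNTG, the TEAD motif GGAATG, the homeodomain core TAATTA and the T-box half-site GGTGTGA.
Tbx18, chr9:87731261-87731510, minus strand: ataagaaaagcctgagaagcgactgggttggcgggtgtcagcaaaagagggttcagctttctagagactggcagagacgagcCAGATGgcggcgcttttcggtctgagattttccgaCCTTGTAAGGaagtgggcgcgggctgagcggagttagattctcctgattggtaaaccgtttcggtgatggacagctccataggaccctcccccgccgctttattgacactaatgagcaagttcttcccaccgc
Prrx1, chr1:163313651-163313900, minus strand: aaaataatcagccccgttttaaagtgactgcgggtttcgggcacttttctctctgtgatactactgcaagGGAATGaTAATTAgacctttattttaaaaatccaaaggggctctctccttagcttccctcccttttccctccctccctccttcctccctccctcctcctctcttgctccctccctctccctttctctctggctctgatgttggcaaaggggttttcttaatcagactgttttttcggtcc
Acta2, chr19:34255374-34255623, minus strand: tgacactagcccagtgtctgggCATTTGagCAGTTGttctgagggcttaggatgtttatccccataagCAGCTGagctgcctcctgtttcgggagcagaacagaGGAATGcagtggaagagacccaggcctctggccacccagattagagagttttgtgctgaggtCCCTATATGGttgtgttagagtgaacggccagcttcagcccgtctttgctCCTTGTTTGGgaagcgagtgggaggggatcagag

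The Acta2 run held 2 CArG boxes with 1 other base, CCCTATATGG at 84 and CCTTGTTTGG at 34 bases before the start, 1 GGAATG and 3 E-boxes. The Tbx18 run held 1 such CArG box, CCTTGTAAGG, and 1 E-box. In the Prrx1 run there were 1 GGAATG and 1 TAATTA, and neither a CArG box nor an E-box. Over 32851 promoters of the same length, 7.24% held a CArG box with 1 other base, 1.47% one with none, 66.2% an E-box, 12.6% GGAATG, 4.84% TAATTA and 3.33% GGTGTGA. The table held 6 of the 10 genes. The Snai1 promoter had 1 E-box, which was CACCTG, a form that Snail and Zeb proteins bind and that 17.2% of promoters held. Neither the Twist1 promoter nor any of the 4 Zeb2 promoters had an E-box. These matches describe the letters only. Snai2, Tagln, Zeb1 and Pdgfrb were not matched.

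Of the 27 probe sets, 10 were kept, and they belonged to 5 genes, Tbx18, Prrx1, Zeb1, Zeb2 and Acta2. Another 16 stayed under log2 4 on all 6 arrays, and 1 of Prrx1 passed it on a single array. In 2 of the kept probe sets, 1449871_at of Tbx18 and 1425528_at of Prrx1, only the arrays of 1 age were above log2 4, so these had to differ to be kept. In limma across all kept probe sets, 6 of the 10 were past an adjusted p of 0.05 (Benjamini-Hochberg), 2 higher and 4 lower in old cells, where 36.6% of 19858 kept probe sets were, 20.1% higher and 16.5% lower. The ages did not overlap at 7 of the 10, 2 higher and 5 lower, against 55.3% of all kept probe sets, 29.4% higher and 25.9% lower. The median difference, old minus young, was -0.31 over the 10 and 0.01 over all. Since this contrast chose the genes, nothing is read from these counts. Leaving out 1 array left 2 of the 4 lower calls without young replicate 1, young replicate 2 or old replicate 1, and 3 without each of the other arrays.

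**Figure D1:**
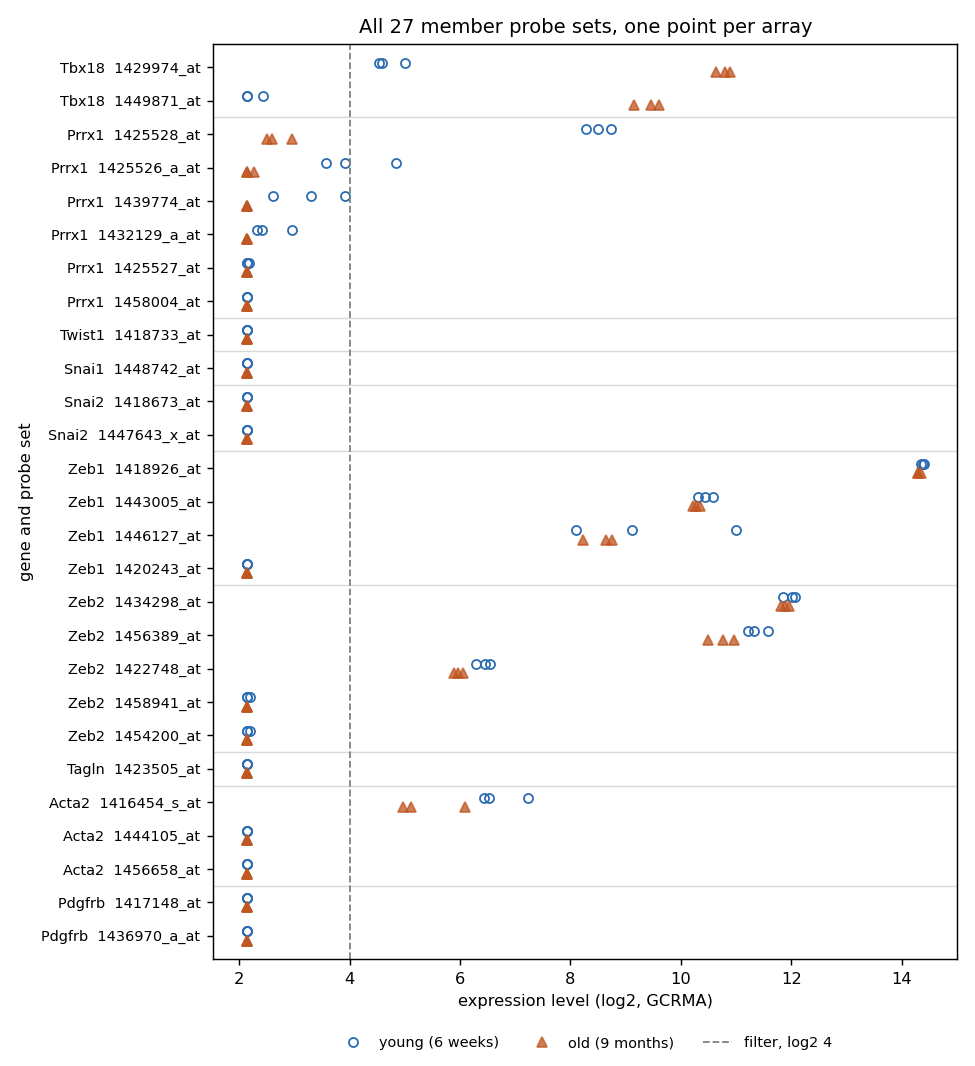
Level (log2, GCRMA) of all 27 probe sets of the 10 genes, 1 point per array, open circles for the 3 young and triangles for the 3 old arrays, with a dashed line at log2 4. Tbx18 lies far to the right in old cells and Prrx1 in young cells, while Twist1, Snai1, Snai2, Tagln and Pdgfrb sit at 2.14 on all 6 arrays.

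Tbx18 was low in young and high in old cells at both of its probe sets. At 1429974_at the young arrays read 5.0, 4.53 and 4.59 and the old arrays 10.81, 10.64 and 10.90. All 3 old arrays were above all 3 young ones, with a gap of 5.64 between the nearest arrays. The mean was 4.70 ± 0.26 in young and 10.78 ± 0.13 in old cells (log2, SD, n = 3), a difference of 6.08 (SE 0.15) or 67.6-fold. At 1449871_at the young arrays read 2.44, 2.14 and 2.14 and the old arrays 9.47, 9.16 and 9.60. The young arrays were all under log2 4 there, so the old mean of 9.41 ± 0.22 (SD, n = 3) was at least 42.5-fold higher, computed against log2 4. Tbx18 was chosen for this difference, so nothing is read from its size.

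Prrx1 went the other way. At 1425528_at the young arrays read 8.73, 8.29 and 8.5 and the old arrays 2.51, 2.59 and 2.96. The old arrays were all under log2 4, and the young mean of 8.51 ± 0.22 (log2, SD, n = 3) was at least 22.8-fold higher, computed against that level. The difference from the old mean of 2.69 ± 0.24 was -5.82 (SE 0.16). No young array came within 5.34 of an old one. The 5 further probe sets of Prrx1 were dim. At 1425526_a_at the young arrays read 4.85, 3.58 and 3.91 and the old arrays 2.26, 2.15 and 2.15, again without overlap. At 1439774_at the young arrays lay at 3.92, 3.31 and 2.61 and all old arrays at 2.14. Old cells were also lower on every array at 1432129_a_at, by 0.42, all 6 values being under 3. The remaining 2, 1425527_at and 1458004_at, were at or near 2.14 throughout. No probe set of Prrx1 was higher in old cells.

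The genes closest in pattern to Tbx18 and to Prrx1 were sought among all kept genes by Euclidean distance over the 6 arrays, each probe set centred on its own mean. For Tbx18 they were the mitochondrial deacylase gene Sirt5 (distance 0.69), the vesicle protein gene Sytl4 (0.77) and the caspase gene Casp12 (0.78), in log2 units. For Prrx1 they were the transporter gene Slc22a29 (0.46), the cell cycle kinase gene Cdk6 (0.55) and the neuronal tubulin gene Tubb3 (0.56). With 6 arrays in 2 groups, this likeness says little more than that the difference between the ages is of like size. Sirt5 went from 3.12 ± 0.47 to 8.74 ± 0.045 and Cdk6 went from 8.22 ± 0.023 to 2.14 ± 0.011 (log2, SD, n = 3). Against log2 4 these changes were at least 26.8-fold and 18.7-fold. Sirt5 and Sytl4 were kept through the old arrays alone and Cdk6 and Slc22a29 through the young, so they had to differ to be kept.

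Of the 5 factors that drive the epithelial to mesenchymal transition, 3 gave no level. Twist1, with 1 probe set, Snai1, with 1, and Snai2, with 2, read 2.14 on every array. A probe set at the lowest value shows no level above the floor of the method and does not show that the transcript is absent. Their paralogs Twist2 and Snai3 read 2.14 on all 6 arrays as well, and Prrx2, the paralog of Prrx1, read 2.14 ± 0.0061 in young and 2.16 ± 0.021 in old cells (log2, SD, n = 3).

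Zeb1 was high at both ages. At 1418926_at the young arrays read 14.38, 14.40 and 14.36 and the old arrays 14.30, 14.30 and 14.35. These groups just missed each other, by 0.01, and the difference was only -0.06 (95% interval -0.17 to 0.05). At 1443005_at the young arrays read 10.44, 10.58 and 10.31 and the old arrays 10.34, 10.27 and 10.23, which overlapped. The difference there was -0.16 (95% interval -0.36 to 0.04). The next probe set, 1446127_at, gave 8.11, 11 and 9.11 in young and 8.64, 8.23 and 8.76 in old cells. Young replicate 2 was far above the rest at this probe set, and the difference of -0.86 (95% interval -2.71 to 0.99) became -0.07 without that array. This array read over log2 1 above both other young arrays at 522 kept probe sets, or 2.6%, against 21 to 76 for each other array within its age. The last probe set of Zeb1, 1420243_at, was at 2.14 on all 6 arrays.

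Zeb2 differed between its probe sets. At the probe set with the highest level, 1434298_at, the young arrays read 12.07, 12.01 and 11.85 and the old arrays 11.88, 11.96 and 11.81, which overlapped. That difference was -0.09 (95% interval -0.29 to 0.11). At 1456389_at the young arrays read 11.32, 11.58 and 11.21 and the old arrays 10.77, 10.96 and 10.49. All old arrays were lower there, by 0.63 on average (SE 0.15), or 1.55-fold. At 1422748_at the young arrays read 6.55, 6.29 and 6.45 and the old arrays 5.96, 6.06 and 5.89, a difference of -0.46 (SE 0.086), or 1.37-fold. The other 2 probe sets of Zeb2 did not exceed 2.19. The ages were thus apart at 2 of the 3 kept probe sets, and not at the brightest. Over all kept probe sets they were apart at 55.3%, so nothing is read from this count. The limma call at 1456389_at was lost without young replicate 1, young replicate 2, old replicate 1 or old replicate 3.

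Acta2 was read by 1 kept probe set, 1416454_s_at, whose suffix marks a probe set that can bind transcripts of more than 1 gene, so other actins may add to it. The young arrays read 7.24, 6.43 and 6.52 and the old arrays 4.97, 5.11 and 6.10. All old arrays were lower than all young ones, but old replicate 3 came within 0.33 of the lowest young array. The mean was 6.73 ± 0.44 in young and 5.39 ± 0.62 in old cells (log2, SD, n = 3), a difference of -1.33 (SE 0.38), or 2.52-fold. On leaving out 1 array the difference lay between -1.08, without young replicate 1, and -1.69, without old replicate 3. Of the 6 fits that left out 1 array, it was past the limma threshold only in the one without old replicate 3. Since this contrast chose the genes, that call describes the fit and is no test of Acta2. Both other probe sets of Acta2 read 2.14 on all 6 arrays, as did Tagln. In bulk samples such as these, fewer cells of a type and less RNA per cell cannot be told apart.

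**Figure D2:**
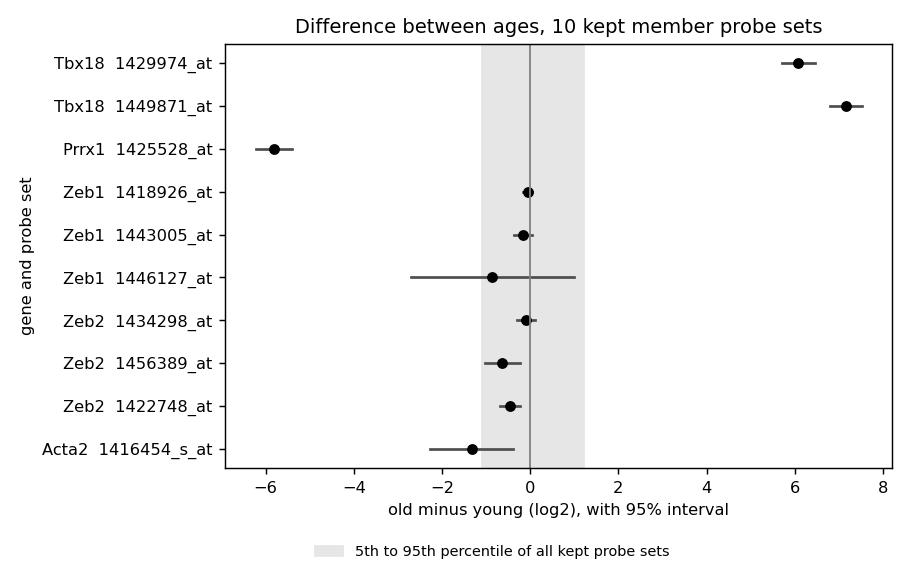
Difference between the ages, old minus young (log2), for the 10 kept probe sets, with the 95% interval from the limma fit and a grey band from the 5th to the 95th percentile of all kept probe sets, -1.09 to 1.23. Both Tbx18 probe sets, Prrx1 and Acta2 lie outside the band, and the 6 of Zeb1 and Zeb2 lie inside it.

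Genes of the same pathways were then counted in 11 lists that did not hold the 10 genes. The lists had 158 genes on the array, of which 71 were kept and 83 stayed under log2 4 on all 6 arrays. In limma 18 of the 71 rose and 21 fell in old cells, where 40.6% of 10050 kept genes were called, 22% as higher and 18.5% as lower. Each gene is given by the kept probe set that was brightest on average, and p-values are adjusted over all kept probe sets. The median difference over all kept genes was 0.01. Below, changes are log2 differences, old minus young, with n = 3 per age.

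Among paralogs and other mesenchymal lineage factors 3 of 23 genes were kept, and all 3 rose (median 1.72). Tbx15, a T-box factor of the same subfamily as Tbx18, read 7.47, 6.33 and 6.74 in young and 8.64, 8.54 and 8.54 in old cells, a rise of 1.72 (SE 0.29, adjusted p = 0.00817). Every old array of Tbx15 was above every young one. This held for 29.4% of all kept probe sets, and Tbx18 was chosen for its difference, so no likeness is read from it. The other probe set of Tbx15 stayed under log2 4 on all 6 arrays. It read 2.16, 2.14 and 2.16 in young and 2.2, 3.09 and 2.38 in old cells. The forkhead factor Foxc1, which acts in meninges and mural cells, rose by 0.85 (adjusted p = 0.000265), and by 1.44 at its second probe set. The nuclear receptor Nr2f2, known from venous endothelium and mesenchyme, rose by 2.55 (adjusted p = 2.44e-05). Foxc2 and Foxf1 missed the filter and were singled out after their values were seen. Foxc2 read 2.32, 2.15 and 2.14 in young and 3.89, 4.09 and 4.89 in old cells, and Foxf1 read 2.16, 2.20 and 2.33 against 4.33, 3.91 and 4.63. Both thus lay near background in young cells and just around log2 4 in old cells.

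The PDGF axis was read without its receptor beta, whose probe sets stayed at 2.14. Of 7 genes 5 were kept, of which 2 rose and 1 fell (median 0.04). The ligand gene Pdgfa rose by 0.84 (SE 0.058, adjusted p = 0.000461), from 12.08 ± 0.034 to 12.92 ± 0.077, and Nrp1, a coreceptor for PDGF and other ligands, by 0.83 (adjusted p = 0.000716). The receptor Pdgfra, which binds that ligand, fell by 1.44 (SE 0.25, adjusted p = 0.00854). Its young arrays read 8.83, 8.56 and 8.47 and its old arrays 7.52, 6.66 and 7.35. Pdgfb, the ligand of Pdgfrb, read 2.14 on all 6 arrays.

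Of 14 pericyte markers 3 were kept, and all 3 fell (median -1.99). The adhesion molecule gene Mcam read 8.53, 8.08 and 8.27 in young and 4.44, 4.71 and 4.12 in old cells and fell by 3.87 (SE 0.19, adjusted p = 0.000158). The proteoglycan gene Cspg4 fell by 1.99 (adjusted p = 0.000184) and the receptor gene Notch3 by 0.58 (adjusted p = 0.00468). Since Tbx18 was chosen for its rise, no contrast with it is read from these 3 genes. Rgs5, another pericyte gene, read 2.23 ± 0.13 in young and 2.17 ± 0.043 in old cells (log2, SD, n = 3), and Abcc9 and Kcnj8 were at 2.14 on all 6 arrays.

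**Figure D3:**
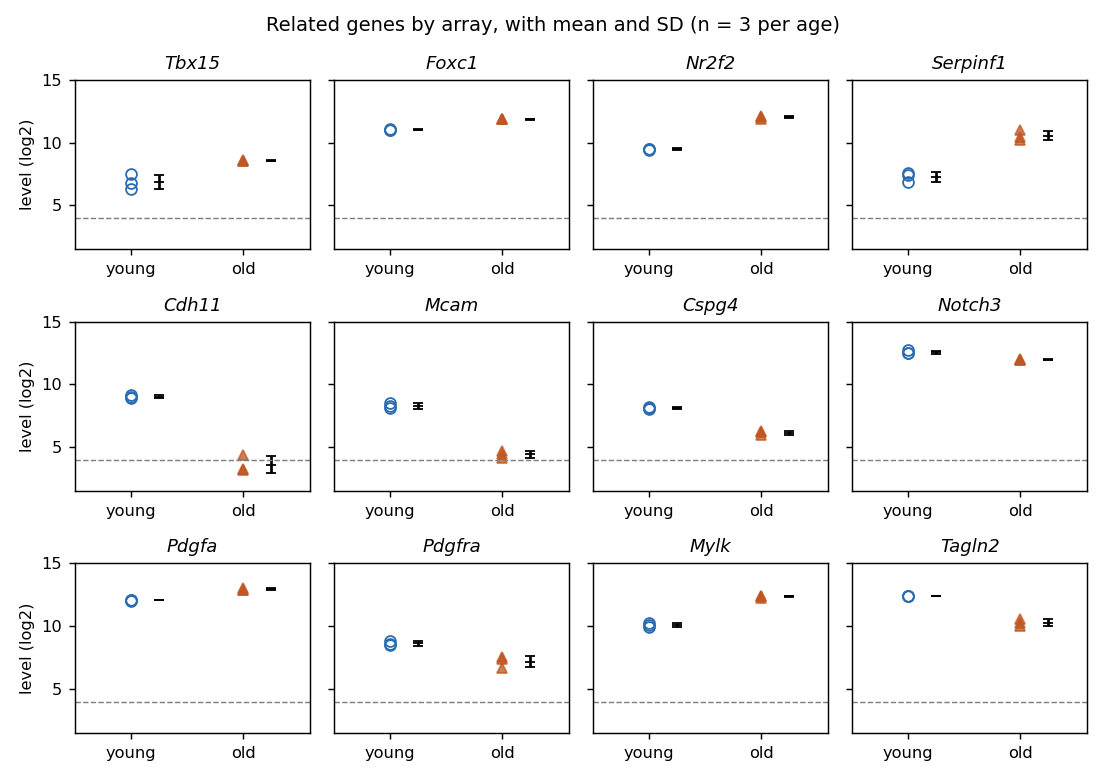
Level (log2) of 12 related genes by array, open circles for young and triangles for old, with the mean and SD of each age (n = 3) beside the points and a dashed line at log2 4. Tbx15, Foxc1, Nr2f2, Serpinf1, Pdgfa and Mylk were higher, and Cdh11, Mcam, Cspg4, Notch3, Pdgfra and Tagln2 lower, on every old array.

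Most contractile and actin-binding genes that passed the test fell. Of 23 genes 15 were kept, of which 8 fell and 1 rose (median -0.29). Tagln2, a transgelin that is not limited to muscle, fell by 2.11 (SE 0.14, adjusted p = 0.000402), from 12.37, 12.40 and 12.42 in young to 10.28, 10.55 and 10.01 in old cells. Tagln3, the neuronal transgelin, read 7.13, 5.81 and 6.96 in young and 2.17, 2.14 and 2.36 in old cells, at least 6.21-fold lower against log2 4 (adjusted p = 0.000793). It was kept through the young arrays alone, so it had to differ to be tested, and it is 1 of the 8. The focal adhesion gene Zyx fell by 2.16 (adjusted p = 0.00172). Myl9, a myosin light chain gene singled out after its values were seen, fell by 2.24 (adjusted p = 0.0135), with old replicate 3 at 6.95 above the other old arrays at 5.79 and 5.36, the same array that was highest of the old for Acta2. The exception was the myosin light chain kinase gene Mylk, which rose by 2.25 (adjusted p = 8.85e-05). Its second kept probe set read 3.33, 3.29 and 3.34 in young and 7.93, 8.01 and 8.11 in old cells, and was kept through the old arrays alone. Myh11, Cnn1 and Des, which define smooth muscle, were at 2.14 on all 6 arrays.

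Of 9 genes of the Srf and myocardin family and its early targets, 5 were kept and 2 fell (median -0.18). Srf itself differed by 0.12 (adjusted p = 0.455). Its cofactor Mrtfa fell by 0.35 (adjusted p = 0.0108) and the target Ccn1 by 0.97 (adjusted p = 0.00714). The Mrtfa call was lost with a variance prior that follows the level (adjusted p = 0.0638). Myocd, the cofactor of smooth muscle, read at most 2.25 on any young array and 2.14 on all old arrays.

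Most epithelial genes that Snail and Zeb factors repress were dim. Of 20 junction genes 2 were kept, and neither passed the threshold. These were Jup, with means of 12.36 in young and 12.52 in old cells, and Tjp1, with means of 13.98 and 14. Cdh1, the E-cadherin gene, read 2.14 on all 6 arrays. Of 10 repressors of the transition 2 were kept and the splicing factor gene Esrp2 rose by 0.32 (adjusted p = 0.00723), while its other probe set stayed at 2.14. The other kept gene, Grhl2, singled out after its values were seen, read 3.90, 7.02 and 5.36 in young and 4.03, 4.08 and 2.80 in old cells, which overlapped (-1.79, adjusted p = 0.155). It passed the threshold without young replicate 1.

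Genes of the mesenchymal state went both ways, with 5 of 13 kept genes rising and 2 falling (median 0.22) and 4 further genes under the filter. The largest fall was that of Cdh11, the cadherin of mesenchymal cells, which went from 9.16, 8.94 and 8.98 in young to 3.28, 4.38 and 3.18 in old cells (adjusted p = 0.000335). At its second probe set the young arrays read 8.82, 8.79 and 8.77 and the old arrays 2.85, 3.99 and 2.54, all under log2 4, so it was kept through the young arrays alone. Prrx1 was chosen for its fall in old cells, so no likeness to Cdh11 is read. The matrix protein gene Tnc fell by 0.92 (adjusted p = 0.00149), and by 4.73 at its second probe set (adjusted p = 0.0032). The membrane protease gene Mmp14 read 2.14 on all young and 5.24, 5.26 and 6.04 on the old arrays (adjusted p = 0.000442), and it was kept through the old arrays alone, so it had to differ to be tested. S100a4, a calcium-binding protein gene of fibroblasts, rose by 1.56 (adjusted p = 9.79e-05). The intermediate filament gene Vim (0.02, adjusted p = 0.676) and the N-cadherin gene Cdh2 (-0.18, adjusted p = 0.0515) did not pass, although the second probe set of Cdh2 did (-0.24, adjusted p = 0.0198).

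Of 21 fibroblast and meningeal markers 7 were kept, of which 5 rose and 1 fell (median 0.85). Besides S100a4 and Foxc1, the secreted serpin gene Serpinf1 rose by 3.29 (adjusted p = 0.000758) and Igfbp2 by 0.38 (adjusted p = 0.00569). The defining genes of fibroblasts Col1a1, Col1a2, Col3a1, Lum and Dcn stayed under log2 4 on all 6 arrays. These counts do not describe the list as a whole, since most markers lay at or near the lowest value. The summed level of the 21 markers was 14.2 to 14.32 in young and 14.73 to 14.83 in old cells, and that of the 17 mural markers 12.63 to 12.84 and 11.98 to 12.1. Each of these sums was carried mostly by 1 gene, Igfbp2, with means of 14.02 and 14.4, and Notch3, with means of 12.56 and 11.97. For 11 endothelial markers, of which 10 stayed under log2 4, Pecam1, Cdh5 and Cldn5 among them, it was 6.9 to 7.07 in young and 6.22 to 6.59 in old cells. For 12 markers of microglia and macrophages, of which 11 stayed under log2 4, Aif1, Cx3cr1 and Csf1r among them, it was 5.87 to 6.03 and 6.12 to 6.87. The only kept endothelial marker was Flt1, with means of 6.38 and 5.16 (limma adjusted p = 0.0129). The only kept marker of microglia and macrophages was Cd68, with means of 3.67 and 5.07 (limma adjusted p = 0.0697, not called). The part of these shifts in the values of the 10 genes was not tested.

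**Figure D4:**
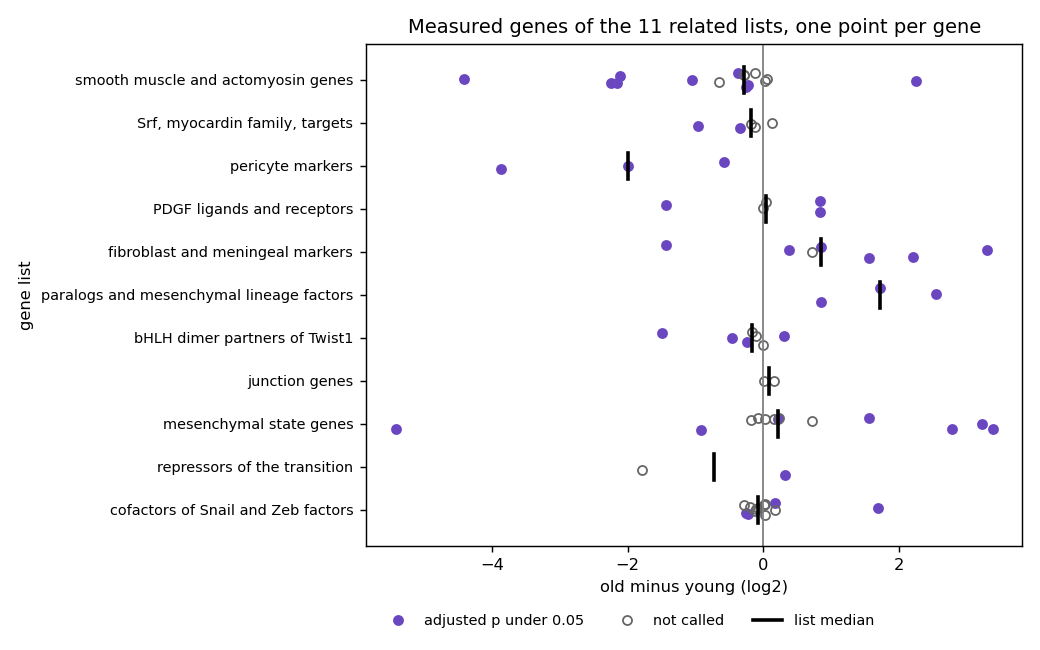
Difference between the ages, old minus young (log2), of the kept genes of the 11 related lists, 1 point per gene, filled where the adjusted p was under 0.05, with a bar at each list's median. Kept pericyte markers lie to the left of 0 and kept paralogs and lineage factors to the right, with medians of -1.99 and 1.72.

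Partners and cofactors of the factors were nearly all present. Of 9 partners and inhibitors of Twist1, 7 were kept, of which 1 rose and 3 fell (median -0.17). Tcf4, an E protein that pairs with Twist1, differed by -0.01 (adjusted p = 0.867) and Tcf12 by -0.11 (adjusted p = 0.133). Tcf3 fell by 0.47 (adjusted p = 0.0189), which did not hold without old replicate 2 (adjusted p = 0.0658) or old replicate 3 (adjusted p = 0.056). The inhibitors Id3 and Id4 fell, with differences of -0.24 (adjusted p = 0.0131) and -1.49 (adjusted p = 0.00421). Id2 rose by 0.30 (adjusted p = 0.0218), and missed the threshold without young replicate 1 or 3 or old replicate 2 or 3, with adjusted p from 0.0607 to 0.077.

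All 13 cofactors and ubiquitin ligases of Snail and Zeb proteins were kept, of which 2 rose and 2 fell (median -0.08). The scaffold gene Ajuba rose by 1.69 (SE 0.095, adjusted p = 0.000251). The deacetylase gene Hdac2 fell by 0.25 (adjusted p = 0.00895), which was not called on the mean of its kept probe sets (adjusted p = 0.113), and the demethylase gene Kdm1a by 0.22 (adjusted p = 0.0194). The Kdm1a call was lost without young replicate 3 or any 1 old array, with adjusted p from 0.0534 to 0.0686. The rise of Fbxw7 by 0.17 (adjusted p = 0.0406) was lost on leaving out any 1 array, with adjusted p from 0.066 to 0.124.

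Arrays of the same age were closely alike over the kept probe sets, at r = 0.979 to 0.993 among young and 0.995 among old arrays, against 0.915 to 0.944 between the ages. These correlations run over probe sets, and probe sets are no replicates. The 18 probe sets for spiked hybridisation controls all read lower on the old arrays than on any young array. They averaged 13.24 ± 0.285 in the young and 12.28 ± 0.098 in the old group (log2, SD, n = 3), or -0.96. Their shift ran with the ages throughout, and its part in the differences of the 10 genes was not tested.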

How the data were processed

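RNA of 6 samples was extracted, labelled with biotin and hybridised to 1 array each, per the labels' protocols. The deposited values are log2 expression levels. The submitters' processing notes name GCRMA as the tool, and the values themselves gave the scale. Its version is not given in the sources. GCRMA draws dim probe sets to a shared lowest value, so changes out of it have an uncertain size. On each array 38.3 to 40.4% of values lay at it.

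Symbols came from the platform annotation and were checked through Entrez identifiers and RefSeq (GRCm38.p6), of which 99.4% matched and 0 symbols changed. Of 45101 probe sets, 64 controls were left out, 34945 had 1 symbol, 932 several and 9160 none. Those above log2 4 on at least 3 arrays, 19858 in all, entered 1 fit by limma 3.58.1 under R 4.3.3 (eBayes, two-sided, Benjamini-Hochberg over all kept probe sets, threshold 0.05, 4 residual and 1.47 prior degrees of freedom). The fit was tested on simulated data. A value under log2 4 on every array of an age gives an at least N-fold change against log2 4.

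The genes and lists were chosen with earlier results of these data known. Of each list up to 4 genes past the threshold with the smallest p were named, with a fixed set of paralogs, ligands, partners and markers, and the 3 genes closest to Tbx18 and Prrx1. Alternatives were other filters, quantile normalization, centring, a replicate block, array weights, other eBayes options, the mean of a gene's probe sets and leaving out each array. Figures were drawn with matplotlib 3.10.9.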

Additional observations from a re-analysis of the deposited data

How the results depend on the processing

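Under 13 alternatives, the differences of the 10 kept probe sets of Tbx18, Prrx1, Zeb1, Zeb2 and Acta2 kept their sign. The filters, the replicate block and the eBayes options cannot move a difference in this design, so they are no check of its size. At 1446127_at of Zeb1, the difference of -0.86 became -0.07 without young replicate 2 and -1.51 without young replicate 1. With the replicate number as a block, 2 of these probe sets were called higher and 2 lower in old cells, against 2 and 4, and over all probe sets 3144 were called higher and 2456 lower, against 3995 and 3273. The deviations of same-numbered arrays from their age means correlated at r = -0.16, -0.11 and 0.16. Of each age 1 of 3 arrays deviated most like its own number. With so few arrays this cannot tell whether same-numbered samples were paired, and the labels do not say. On leaving out 1 array, 2 to 3 of the 10 were called lower, and over all probe sets 2177 to 3301 were lower and 2768 to 3961 higher. Without a filter on low values a second Prrx1 probe set, 1425526_a_at, was called lower, and Acta2 and 1456389_at of Zeb2 were not. With the trend and robust options of eBayes, 1418926_at of Zeb1 was called lower and 1422748_at of Zeb2 was not. Calls of the 10 probe sets describe the fits and are no test, since this contrast chose the genes. Of 30 named genes of the related lists past the threshold, 23 kept the call under every alternative and 7 lost it under at least 1. The floor of GCRMA limits what can be said of the 5 genes that read 2.14 on all 6 arrays.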
